A study of Homo sapiens with 28 samples.

Results

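Serpins are a family of proteins that block serine proteases, and 9 of them are described here across human liver tumour cell lines: SERPINA1, SERPINA3, SERPINA6, SERPINA7, SERPINA10, SERPINC1, SERPIND1, SERPINF2 and SERPING1. They were taken by symbol, whatever their values, from the 18961 amplicons of the deposited table, and all 9 passed the filter on low values that 13100 genes passed. 26 other serpin genes in the table serve as background. The 4 lines are HepG2, which came from a hepatoblastoma, and the hepatocellular carcinoma lines Hep3B, HuH7 and PLC/PRF/5. Each was sampled as 3 libraries from cells grown in vitro and 4 libraries from tumours grown in ovo, which makes 28 libraries in 8 groups. For the in ovo groups the labels describe grafting onto the chorioallantoic membrane of the chick embryo at embryonic day 9 and removal at day 18. No group received a drug or carried an engineered allele. These are established lines, so the replicates of a line share 1 genetic background, and no label says whether they came from separate cultures or eggs. P values therefore measure the spread between libraries, which may be technical.

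The liver makes most of the serpins of blood plasma. A serpin presents an exposed loop as bait. The protease cuts it, the serpin folds over and the pair stays locked, so each molecule of inhibitor is spent once. Antithrombin (SERPINC1) and heparin cofactor II (SERPIND1) block thrombin, the protein Z-dependent inhibitor (SERPINA10) blocks factor Xa, and alpha-2-antiplasmin (SERPINF2) blocks plasmin, the enzyme that dissolves clots. Alpha-1-antitrypsin (SERPINA1) blocks neutrophil elastase, and alpha-1-antichymotrypsin (SERPINA3) blocks cathepsin G and rises in plasma in the acute phase response. C1 inhibitor (SERPING1) restrains the first proteases of complement and kallikrein. SERPINA6 and SERPINA7 keep the serpin fold but inhibit nothing: they carry cortisol and thyroxine in blood.

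Each gene was read through 1 short amplicon, and the reads of a gene are only as specific as that sequence. The amplicons below are those of SERPINC1 and SERPINA3, which were called in opposite directions in different lines, of SERPING1, the member that changed most in HuH7, and of SERPINA6, a relative of SERPINA3 read across the same exon junction. Capitals mark the base on each side of an exon junction, and the sequences are those deposited with the table.
SERPINC1: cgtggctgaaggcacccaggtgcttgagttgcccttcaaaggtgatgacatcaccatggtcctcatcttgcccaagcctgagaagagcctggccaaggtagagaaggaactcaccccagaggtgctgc
SERPING1: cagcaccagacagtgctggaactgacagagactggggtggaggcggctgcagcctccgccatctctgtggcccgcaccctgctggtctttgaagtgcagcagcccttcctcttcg
SERPINA3: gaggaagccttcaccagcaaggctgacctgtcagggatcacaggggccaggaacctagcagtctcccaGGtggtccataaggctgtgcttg
SERPINA6: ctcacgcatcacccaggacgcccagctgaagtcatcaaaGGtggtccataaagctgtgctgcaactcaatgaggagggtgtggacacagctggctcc

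All 9 amplicons matched coding sequence on GRCh38. That of SERPINC1 is 128 bases long and lies in exon 5 of 7, on the minus strand (chr1:173909696-173909823). That of SERPING1, 115 bases, lies in the last exon, exon 7, on the plus strand (chr11:57614402-57614516). SERPINA3 and SERPINA6, which lie on chromosome 14, were both read across the junction of exons 4 and 5, on opposite strands (chr14:94622423-94623632, plus, and chr14:94304547-94306110, minus). The SERPINA3 amplicon also matched the annotated transcript AL049839.2 without a difference, so its reads may belong to either. The closest other gene to the SERPINA1 amplicon was SERPINA2, at 69.5% identity, and to the SERPINA7 amplicon the pseudogene SERPINA7P1, at 81.1%. For the remaining 6 members no other gene aligned. Of these, SERPINA10 was read on chromosome 14 over exons 3 and 4 (chr14:94286189-94288330), SERPIND1 in exon 5 (chr22:20786901-20786984) and SERPINF2 over exons 9 and 10 (chr17:1752655-1754199). SERPINA1 was read in exon 5 (chr14:94380995-94381100) and SERPINA7 in exon 1 (chrX:106036710-106036804). Amplicons differ in how well they amplify, so changes are measured within each gene. Where levels or read shares of different genes are set side by side, they also reflect amplification.

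The 12 culture libraries held 6205368 to 8662998 reads each and the 16 tumour libraries 6085750 to 15086465. Levels are CPM, shares of a library's reads on a fixed total, after TMM scaling, a correction for libraries dominated by a few genes. 3 reads, taken as the floor, equal 0.199 to 0.493 CPM before that scaling, and floors cover counting error only. The TMM factors of Hep3B tumours were 0.447 to 0.711, which raises their scaled levels: with the library total alone, the median difference of all genes in Hep3B was lower by 0.69 on the log2 scale. Changes compare tumours with cultures as differences of log2(CPM + 1), given with their SE, and this scale understates them for genes at a few CPM. P values are from limma, adjusted by Benjamini-Hochberg over 13100 genes, with 0.05 as the threshold for a call. Over all genes, tumour replicate 3 stood apart from the other tumours in HepG2 and HuH7. Its read counts differed from theirs by a chi-square per gene of 136 to 149 in HepG2 and 145 to 234 in HuH7, against 8.91 to 30.3 and 25.4 to 70.4 among the others. Cultures and tumours were extracted with different RNA kits, so kit and condition cannot be told apart. In such bulk samples fewer cells of a type and less RNA per cell cannot be told apart either. Hepatocyte markers were read in HepG2, Hep3B and HuH7, whereas ALB, TTR and HP stood at 0 reads in all PLC/PRF/5 cultures. KDR and EMCN of endothelium, MS4A1 of B cells and KRT1 of skin were at 0 reads in every group, but other markers of these tissues were read. The 10 endothelial markers summed to 41.1 to 49.0 CPM in HepG2 cultures and 51.5 to 63.9 CPM in HepG2 tumours. Of the 4 tested, 2 were called higher and 1 lower in HepG2. The 10 leukocyte markers summed to 385 to 401 CPM in HepG2 cultures. The 7 of stratified epithelium summed to 417 to 475 CPM in PLC/PRF/5 cultures. The amplicons were designed for human transcripts, and how much chick RNA they read was not tested.

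**Figure D1:**
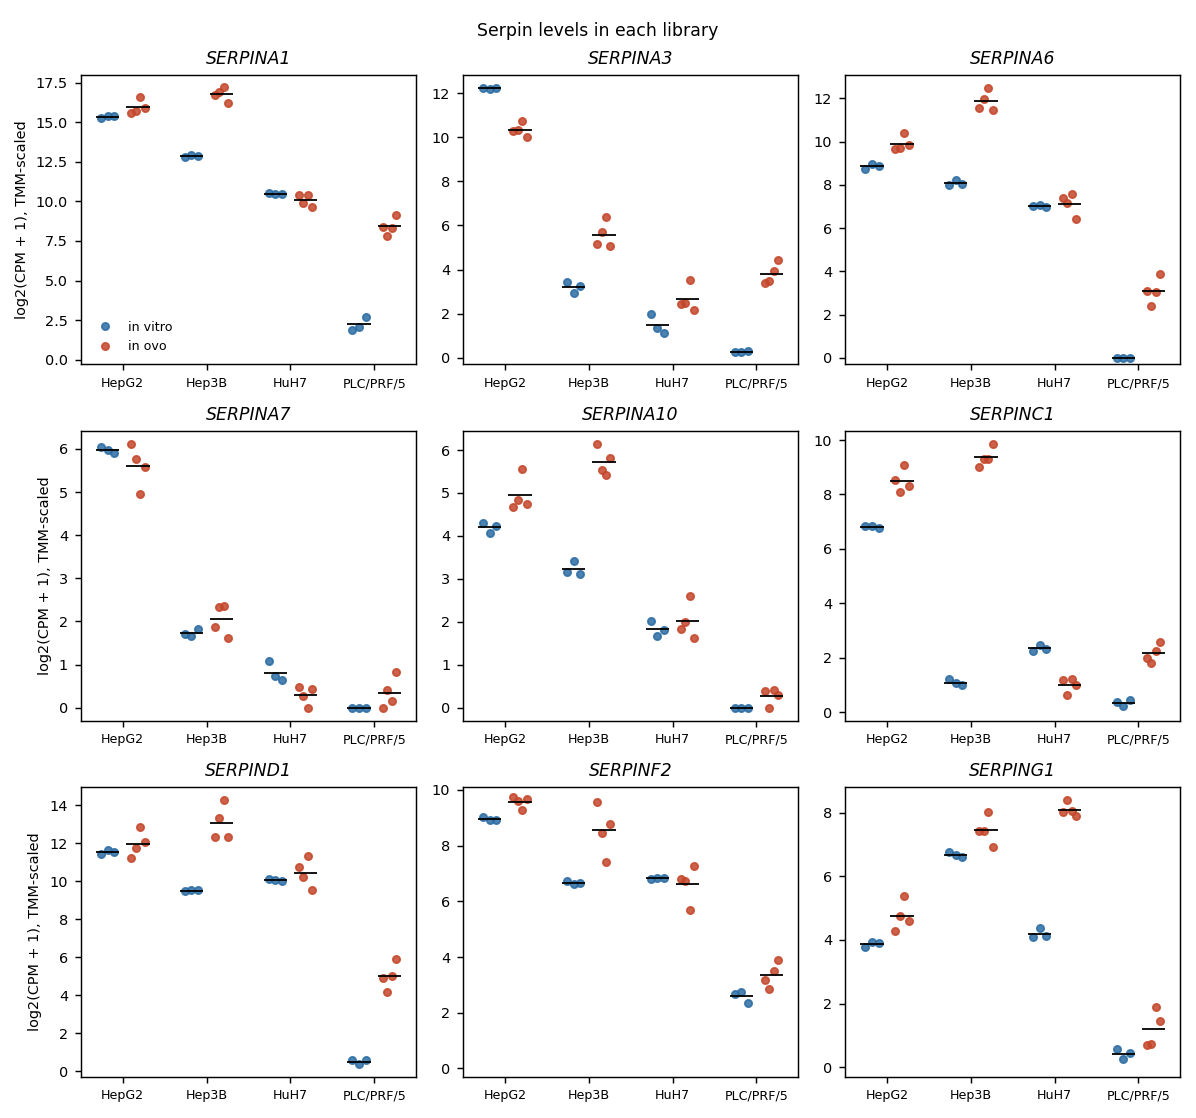
TMM-scaled level of each serpin, as log2(CPM + 1), in every library of the 4 lines, cultures in blue and tumours in red, with a bar at each group's mean. SERPINC1 in Hep3B moved from the lower end of its panel in vitro to the top in ovo, and PLC/PRF/5 cultures lie at the bottom of every panel.

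The 9 genes together took 5.30% ± 0.117 of all reads in HepG2 cultures (SD, n = 3) and 6.32% ± 0.949 in HepG2 tumours (n = 4). In Hep3B they took 0.979% ± 0.00156 in vitro and 7.21% ± 0.863 in ovo. HuH7 gave 0.334% and 0.310%, and PLC/PRF/5 gave 0.00142% and 0.0503%. SERPINA1 alone made up 6.39% ± 0.706 of the reads of Hep3B tumours, and it took more reads than the other 8 genes together in all groups but HuH7 tumours and PLC/PRF/5 cultures. In HuH7 tumours SERPINA1 took 0.110% of reads and the other 8 genes 0.200%, and in PLC/PRF/5 cultures 0.000538% and 0.000883%.

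All 9 genes differed between the lines in cultures and in tumours (limma F test; 71.5% and 85.8% of all genes were called there). In culture HepG2 had the highest level of 8 of the 9, and Hep3B of SERPING1. In tumours Hep3B had the highest level of SERPINA1, SERPINA6, SERPINA10, SERPINC1 and SERPIND1, HuH7 of SERPING1, and HepG2 of SERPINA3, SERPINA7 and SERPINF2. Neighbours in these orders mostly differed. The exceptions in culture were HuH7 against Hep3B for SERPIND1 (log2 difference 0.57 ± 0.46 SE, adjusted p = 0.392) and SERPINF2 (0.15 ± 0.37, adjusted p = 0.825), and HuH7 against HepG2 for SERPING1 (0.32 ± 0.29, adjusted p = 0.409). In tumours the exception was PLC/PRF/5 against HuH7 for SERPINA7, both near the floor (0.05 ± 0.22, adjusted p = 0.845). For a pair of lines, 34% to 50.9% of all genes were called in culture and 48.9% to 66.5% in tumours.

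In Hep3B 8 of the 9 serpins rose in ovo and none fell, against 24.6% of all genes called higher and 27.4% called lower. In HepG2 4 rose (SERPINA6, SERPINA10, SERPINC1 and SERPING1) and SERPINA3 fell, against 12.1% and 13%. In HuH7 SERPINA3 and SERPING1 rose and SERPINC1 fell, against 23.6% and 19.8%. In PLC/PRF/5 6 were called higher and none lower, against 11.9% and 5.61%, and these calls are taken up separately because another signal moved with them. The median log2 fold change of the 9 was 2.50 in Hep3B, 0.63 in HepG2, 1.81 in PLC/PRF/5 and 0.11 in HuH7. For all genes tested these medians lay between -0.05 and 0.07. In the mean of the lines, where 33.7% of genes were called higher, 8 of the 9 were. That mean weighs the 4 lines equally, PLC/PRF/5 included. In it SERPINF2 was not called with the library total in place of TMM (log2 0.36, adjusted p = 0.155). Nor was it after the subtraction described below for PLC/PRF/5 (0.31, adjusted p = 0.131). SERPINA7 was the one member called in no line by the main limma fit. Tests on recovered reads called it higher in PLC/PRF/5, and 5 of 42 alternatives called it lower in HuH7. With the library total in place of TMM, 6 members were called higher in Hep3B and 3 in HepG2.

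**Figure D2:**
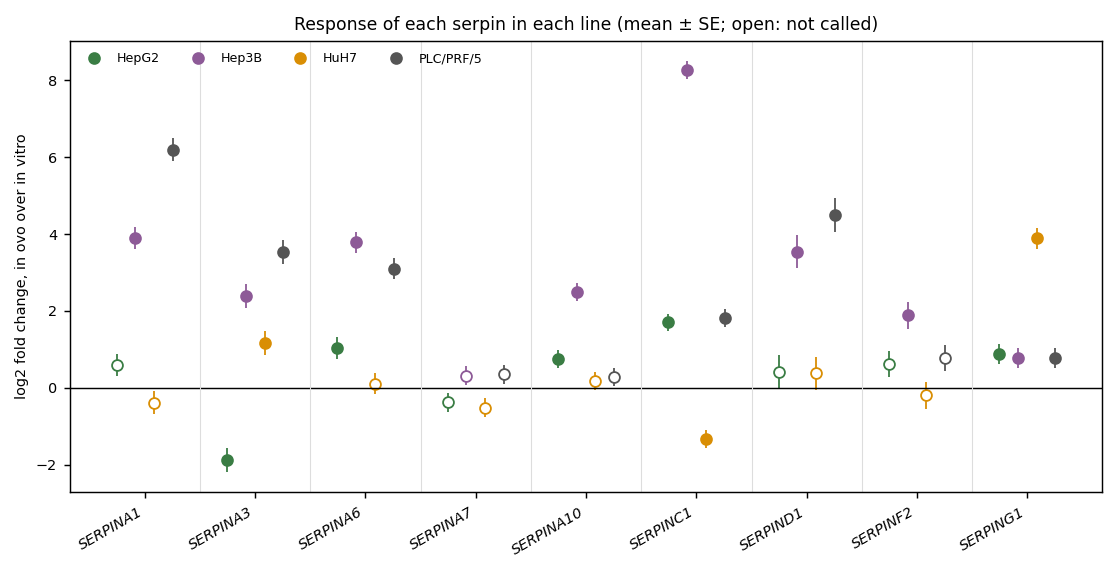
Log2 fold change in ovo over in vitro of each serpin in each line, with SE bars. Filled points were called at an adjusted p under 0.05 and open points were not. SERPINC1 spans from -1.33 in HuH7 to 8.27 in Hep3B, and SERPINA7 lies between -0.52 and 0.35 in all lines.

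Antithrombin (SERPINC1) gave the widest spread of responses. In Hep3B cultures it was barely read, at 1.32, 1.09 and 1.00 CPM (10, 8 and 9 reads), and the tumours stood at 514, 625, 628 and 928 CPM. The fold change was 309-fold (log2 8.27 ± 0.22, adjusted p = 1.31e-18). HepG2 began much higher, at 107 to 114 CPM, and its tumours reached 273 to 545 CPM (3.25-fold, adjusted p = 2.83e-06). No tumour overlapped a culture in either line. HuH7 went the other way, from 3.74, 4.61 and 3.96 CPM in culture to 1.29, 0.538, 1.35 and 1.03 CPM in tumours (log2 fold change -1.33 ± 0.22, adjusted p = 5.14e-05). These HuH7 tumour values rest on 5 to 12 reads a library, and the call held in all 42 alternatives. Of the 42, here and for other members, 28 left out 1 library each. Where that library came from another line, a line's fold change stayed the same and only its p value could change. The responses of Hep3B and HuH7 differed by 9.60 ± 0.32 on the log2 scale (adjusted p = 1.39e-16).

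Heparin cofactor II (SERPIND1), the other thrombin inhibitor, rose in Hep3B from 727 ± 8.44 CPM to tumour values of 5046, 10240, 19710 and 5120 CPM (log2 fold change 3.55 ± 0.43, adjusted p = 4.79e-07). The tumours themselves spread almost 4-fold, and replicate 3 was the highest. In HepG2 the cultures had 2736 to 3173 CPM and the tumours 2344, 3382, 7474 and 4210 CPM, which overlap (0.42 ± 0.43, adjusted p = 0.519). HuH7 cultures had 1036 to 1126 CPM and the tumours 747 to 2530 CPM, which also overlap (0.37 ± 0.43, adjusted p = 0.514). In HepG2 and HuH7 too, replicate 3 was the highest tumour.

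The protein Z-dependent inhibitor (SERPINA10) was read at a low level. Hep3B went from 7.92, 9.68 and 7.68 CPM in culture to 69.7, 45.3, 41.7 and 55.5 CPM in tumours (5.65-fold, adjusted p = 7.99e-09). HepG2 went from 15.8 to 18.8 CPM in culture to 24.6, 27.4, 46.3 and 25.8 CPM in tumours (log2 fold change 0.75 ± 0.24, adjusted p = 0.0201). Without the HepG2 tumour at 46.3 CPM, replicate 3, the change was 0.55 and was no longer called (adjusted p = 0.0874), and 8 of 42 alternatives ended this call. HuH7 cultures and tumours overlapped, at 2.19 to 3.04 and 2.06 to 5.06 CPM (0.18 ± 0.24, adjusted p = 0.573).

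Alpha-2-antiplasmin (SERPINF2) works against clot lysis, not clotting. In Hep3B it rose from 104, 98.2 and 101 CPM to 764, 352, 171 and 434 CPM (3.69-fold, adjusted p = 8.51e-05). Here replicate 3 was the lowest tumour, where for SERPIND1 it was the highest. With the library total in place of TMM the change was 0.91 on the log2 scale and the call was lost (adjusted p = 0.0788). HepG2 tumours, at 853, 769, 624 and 825 CPM, all lay above the cultures at 480 to 518 CPM, but the difference was not called (log2 0.63 ± 0.34, adjusted p = 0.19). When HepG2 was fitted alone it was (adjusted p = 0.0232). HuH7 overlapped, with cultures at 110 to 114 CPM and tumours at 51.1 to 154 CPM (-0.20 ± 0.34, adjusted p = 0.674).

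Alpha-1-antitrypsin (SERPINA1) is among the most abundant secreted products of hepatocytes. Hep3B cultures had 7319, 7770 and 7518 CPM, and Hep3B tumours 109400, 122200, 156000 and 75990 CPM (14.9-fold, log2 3.90 ± 0.30, adjusted p = 1.95e-10). HepG2 already had 39370 to 43360 CPM in culture. All HepG2 tumours lay above that, at 48370, 54870, 97830 and 61450 CPM, yet the change was not called (0.59 ± 0.30, adjusted p = 0.152). HuH7 cultures had 1385 to 1449 CPM and the tumours 1354, 940, 1374 and 798 CPM, all lower but not called (-0.39 ± 0.30, adjusted p = 0.296). With the library total in place of TMM, HuH7 was called lower (-0.65, adjusted p = 0.00715).

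Alpha-1-antichymotrypsin (SERPINA3) changed in opposite directions in HepG2 and Hep3B. HepG2 cultures had 4762, 4718 and 4863 CPM and the tumours 1260, 1295, 1723 and 1041 CPM, a fall to 0.274 of the culture level (log2 -1.87 ± 0.31, adjusted p = 6.54e-05). In Hep3B it rose from 9.90, 6.55 and 8.46 CPM to 34.4, 51.6, 82.1 and 32.6 CPM (5.19-fold, adjusted p = 1.34e-06). The 2 responses differed by 4.25 ± 0.44 on the log2 scale (adjusted p = 8.23e-08). HuH7 cultures had 2.93, 1.54 and 1.21 CPM and tumours 4.37, 4.63, 10.5 and 3.51 CPM (log2 fold change 1.17 ± 0.31, adjusted p = 0.00463), a call that 4 of 42 alternatives ended. Without replicate 3, the highest HuH7 tumour, the change was 0.88 (adjusted p = 0.0224). So the gene fell in the line where it was high and rose in lines where it was low, though HepG2 tumours, at a mean of 1330 ± 286 CPM, still stood far above Hep3B tumours at 50.2 ± 22.9 CPM.

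C1 inhibitor (SERPING1) was the member that changed most in HuH7. HuH7 cultures had 16.0, 19.5 and 16.5 CPM and the tumours 255, 336, 262 and 235 CPM (14.8-fold, log2 3.89 ± 0.27, adjusted p = 4.38e-11). This response exceeded that of Hep3B by 3.11 ± 0.38 (adjusted p = 8.15e-07) and that of HepG2 by 3.01 ± 0.38 (adjusted p = 1.49e-06). The 4 HuH7 tumours lie close together and far above the cultures, and the call held in all 42 alternatives. In Hep3B the cultures had 95.5 to 107 CPM and the tumours 172, 172, 259 and 120 CPM (log2 0.78 ± 0.27, adjusted p = 0.0187). That difference turned to -0.20 with the library total in place of TMM (adjusted p = 0.498) and to -0.05 once trends with amplicon GC content and length were removed (adjusted p = 0.861). HepG2 went from 12.8 to 14.2 CPM to 18.6, 25.9, 40.8 and 23.2 CPM (0.88 ± 0.27, adjusted p = 0.0169). Without the HepG2 tumour at 40.8 CPM, replicate 3, it was 0.67 and not called (adjusted p = 0.0734). C1 inhibitor is also made by fibroblasts. Of 10 fibroblast markers 8 were tested, and in HuH7 4 rose and 1 fell, against 23.6% and 19.8% of all genes. The 10 markers summed to 354 to 372 CPM in HuH7 cultures and 558 to 868 CPM in its tumours. THY1 and FAP were at 0 reads in both, and DCN was at 0 in the cultures. The part of such cells in the SERPING1 result was not tested.

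Corticosteroid-binding globulin (SERPINA6) rose with SERPINA1 in Hep3B, from 255, 298 and 262 CPM to 3024, 4000, 5724 and 2840 CPM (13.8-fold, adjusted p = 1.06e-10). In HepG2 it went from 425, 493 and 471 CPM to 801, 838, 1335 and 914 CPM (2.06-fold, adjusted p = 0.00711). Groups did not overlap in these lines. HuH7 cultures, at 126 to 133 CPM, fell within the range of its tumours, at 84.6 to 190 CPM (log2 0.11 ± 0.28, adjusted p = 0.784).

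Thyroxine-binding globulin (SERPINA7), the other carrier, had its highest levels in HepG2. The cultures had 65.0, 62.1 and 59.2 CPM and the tumours 68.4, 53.4, 29.8 and 46.5 CPM, which overlap (-0.38 ± 0.24, adjusted p = 0.268). Hep3B had 2.18 to 2.56 CPM in culture and 2.08 to 4.14 CPM in tumours (0.31 ± 0.24, adjusted p = 0.286). HuH7 had 5 to 11 reads a culture and 0 to 4 a tumour (-0.52 ± 0.24, adjusted p = 0.0846). Its tumours all lay below its cultures, and 5 of 42 alternatives called it lower, so at this depth a fall in HuH7 was at the edge of detection. Every other member responded differently between the lines (limma F test; 41.8% of all genes were called), whereas for SERPINA7 the test gave an adjusted p of 0.0664. The 4 lines of this test include PLC/PRF/5, which is taken up separately below.

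Hepatocyte markers outside the 9 also changed in each line, and their part in these results was not tested. Of 15 markers, 10 rose and none fell in Hep3B, with summed levels of 40800 to 42710 CPM in cultures and 137100 to 183400 CPM in tumours. In HuH7 13 fell and none rose, from 17920 to 18580 CPM down to 4845 to 7441 CPM, whereas among the 9 serpins only SERPINC1 was called lower there. HepG2 had 5 higher and 3 lower (64760 to 67320 CPM in cultures, 88810 to 157100 CPM in tumours). PLC/PRF/5 had 12 higher and none lower (23.2 to 29.6 CPM in cultures, where ALB, TTR and HP were at 0 reads, and 513 to 1443 CPM in tumours). The part in these 12 of HepG2 tumour signal, described below for PLC/PRF/5, was not tested. Of all genes, 24.6% were called higher and 27.4% lower in Hep3B, and 23.6% and 19.8% in HuH7. In HepG2 these shares were 12.1% and 13%, and in PLC/PRF/5 11.9% and 5.61%.

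Groups that did not overlap were also counted, without a test and on the same values as the calls. In Hep3B 8 members had every tumour above every culture, against 26.8% of all genes. In HepG2 6 were wholly above and 1 wholly below, against 18.2% and 21.3%. In HuH7 2 were wholly above, near the share of all genes (25.5%), and 3 wholly below, against 23%. The HuH7 genes below were SERPINA1, SERPINA7 and SERPINC1, of which limma called only SERPINC1 lower. In PLC/PRF/5 7 were wholly above and none below, against 23.4% and 16.1%.

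Over the 6 pairs of lines, 29 of 54 differences between member responses were called. Hep3B against HuH7 gave 7 of 9, where 20.3% of all genes were called. Hep3B against HepG2 gave 6 (23.7%) and HuH7 against HepG2 gave 3 (21.6%). The latter were SERPINA3, SERPINC1 and SERPING1. In pairs with PLC/PRF/5 the counts were 4 against HepG2 (15.8%), 3 against Hep3B (25.9%) and 6 against HuH7 (16.9%). These counts use PLC/PRF/5 responses, which changed with the subtraction of other tumours' shares described below.

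In PLC/PRF/5 the serpins were nearly silent in culture. SERPINA6, SERPINA7 and SERPINA10 had 0 reads in all 3 cultures, which allows up to 0.353 CPM in the shallowest after scaling. SERPINA3 had 2 reads in each culture, SERPINC1 2 or 3, SERPING1 2 to 5 and SERPIND1 3 to 5. SERPINA1 had 28, 34 and 47 reads, and SERPINF2, at 4.12 to 5.63 CPM, was the only other member above 10 reads.

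In PLC/PRF/5 tumours SERPINA1 stood at 338, 228, 315 and 571 CPM against 2.74, 3.24 and 5.54 CPM in cultures (log2 6.19 ± 0.30, adjusted p = 1.33e-13). SERPIND1 reached 16.9 to 58.7 CPM (4.49 ± 0.43, adjusted p = 3.14e-08), and its reads were 79.4 times as frequent as in cultures (95% exact interval 45.3 to 154, counting error only). SERPINA3 reached 9.52 to 20.8 CPM (3.54 ± 0.31, adjusted p = 7.08e-09), with a read ratio of 65.1 (29.7 to 178). These values are small beside those of HepG2. SERPINA6, at 4.29 to 13.5 CPM, was at least 23.0-fold higher than the 3-read floor of the cultures (adjusted p = 9.71e-09). SERPINC1 reached 2.52 to 5.06 CPM, a read ratio of 12.8 (6.31 to 30.2; adjusted p = 1.74e-06). SERPING1 reached 0.608 to 2.72 CPM, a ratio of 3.97 (2.00 to 8.75), and its call (adjusted p = 0.0470) was lost in 25 of 42 alternatives. SERPINF2 was not called, at 6.30 to 13.96 CPM (0.77 ± 0.34, adjusted p = 0.127). SERPINA7 and SERPINA10 had 0 to 7 and 0 to 3 reads a tumour and were not called by limma (adjusted p = 0.364 and 0.485). Count tests on the recovered reads gave other calls: edgeR's quasi-likelihood test called both higher (adjusted p = 0.0174 and 0.0243), and DESeq2 called SERPINA7 (adjusted p = 0.0173) but not SERPINA10 (adjusted p = 0.0544).

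Signal of HepG2 tumours moved with these values. Before TMM scaling, the level of SERPINA1 in PLC/PRF/5 tumours was 0.746% of that in HepG2 tumours, that of SERPIND1 1.06%, SERPINA6 1.11%, SERPINC1 1.27%, SERPINA3 1.36% and SERPINF2 1.60%. For SERPING1, which is higher in Hep3B and HuH7 tumours than in HepG2 tumours, it was 7.03%. SERPINF2 already had 7.10 CPM in PLC/PRF/5 cultures, against 11.2 CPM in the tumours. Against Hep3B tumours the level was 0.66% for SERPINA1, 0.74% for SERPIND1, 0.44% for SERPINA6 and 1.05% for SERPINC1. For SERPINA3, SERPINF2 and SERPING1 it was 59.1%, 4.28% and 1.65% of the Hep3B tumour level. 15 genes outside the serpin family mark HepG2 tumours: they have at least 100 CPM there, under 0.5 CPM in every PLC/PRF/5 culture and under 10% of that level in the tumours of the other lines. The 15 genes were read in PLC/PRF/5 tumours at medians of 1.04%, 1.11%, 0.935% and 1.63% of their HepG2 tumour level, in replicate order. Their median of 0% in each culture follows from the choice of genes under 0.5 CPM there. Replicate 4 was the highest for these genes and also for SERPINA1, SERPINA3, SERPINA6, SERPINC1, SERPIND1 and SERPINF2. Genes that mark Hep3B tumours were read in them at 0.0623% to 0.104%, and genes that mark HuH7 tumours at 0.0328% to 0.460%. In Hep3B tumours the medians were 0.145% to 0.781% for genes of HepG2 tumours and 0.186% to 2.17% for genes of HuH7 tumours. The deposited column names open with a letter and a number whose meaning is not given, and PLC/PRF/5 and HepG2 tumours share their letters.

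When the measured shares of the other lines' tumours were subtracted from each tumour library, an alternative chosen after seeing the data, PLC/PRF/5 members called higher went from 6 to 0. SERPINA1 was then called lower (-2.23, adjusted p = 5.82e-07), at a level where the subtracted share exceeded what was read, and SERPINA3 kept a difference of 1.13 that was not called (adjusted p = 0.0868). SERPING1 was left at 0.17 (adjusted p = 0.733). In Hep3B and HepG2 the counts were the same with and without the subtraction, 8 higher in Hep3B, and 4 higher and 1 lower in HepG2. In HuH7 SERPINA3 was no longer called (1.04, adjusted p = 0.0614) and SERPINA1 was called lower (-0.63, adjusted p = 0.0474). The Hep3B share subtracted from HuH7 tumours rests on only 2 genes, which differ widely. CXCL12 stood at 0.431% and ANGPTL8 at 0.0156% of their Hep3B tumour level. The part of this signal in the PLC/PRF/5 result was not tested beyond that.

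**Figure D3:**
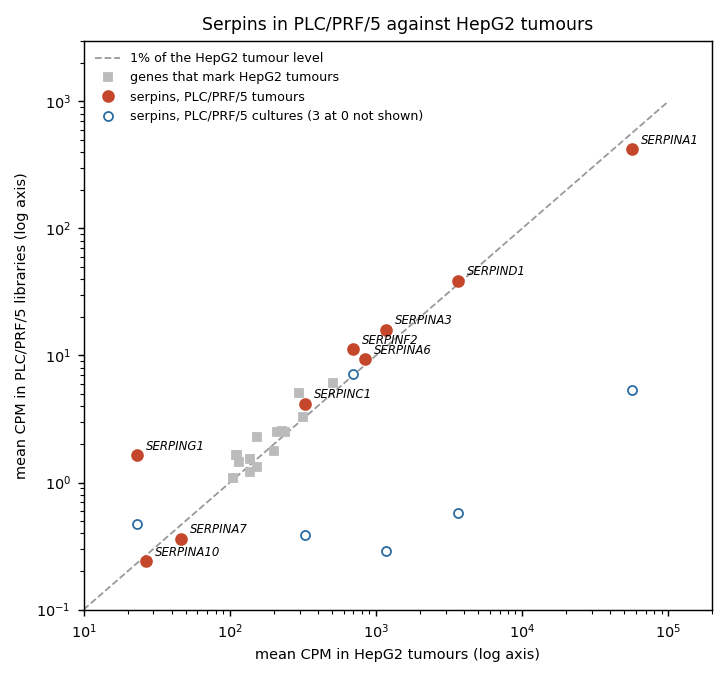
Mean CPM of each serpin in PLC/PRF/5 tumours (red) and cultures (open blue) against its mean CPM in HepG2 tumours, both axes logarithmic, with the 15 marker genes of HepG2 tumours in grey. The dashed line is 1% of the HepG2 level. Most red points and the grey squares lie along it, and SERPING1 lies above it at 7.03%.

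5 of the 9 genes are clade A serpins. SERPINA10, SERPINA6, SERPINA1 and SERPINA3 lie in a cluster on chromosome 14, within 94280455 to 94624055 on GRCh38, with SERPINA2, SERPINA11, SERPINA9, SERPINA12, SERPINA4 and SERPINA5 between them. SERPINA7 is on chromosome X. In Hep3B the neighbours outside the 9 behaved unevenly. Kallistatin (SERPINA4) rose from 0.343 ± 0.104 to 15.2 ± 4.51 CPM (log2 3.55, adjusted p = 4.69e-13) and the protein C inhibitor (SERPINA5) from a mean of 223 to one of 579 ± 195 CPM (1.32, adjusted p = 1.68e-05). SERPINA11 was at 0 reads in both conditions, and SERPINA2, SERPINA9 and SERPINA12 were too low to test. In HepG2 the 2 ends of the cluster moved apart. SERPINA10 and SERPINA6 rose, SERPINA4 rose from 15.0 to 36.6 CPM (adjusted p = 3.64e-05), SERPINA5 stood at 690 ± 18.8 and 708 ± 83.4 CPM (adjusted p = 0.957), SERPINA11 fell from 2.24 to 0.688 CPM (adjusted p = 4.77e-05) and SERPINA3 fell. In HuH7 SERPINA4 and SERPINA3 were the ones called, both higher.

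**Figure D4:**
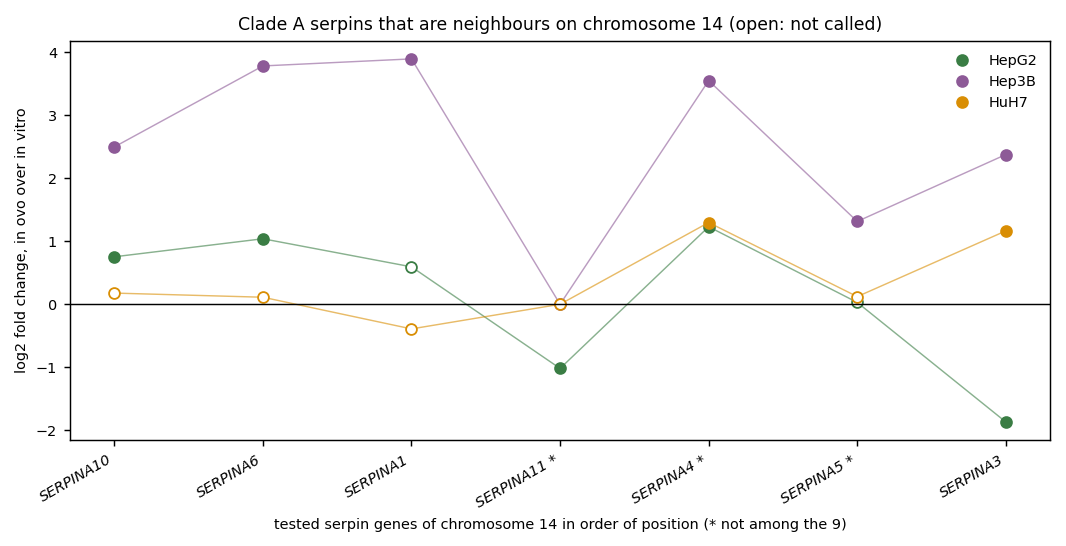
Log2 fold change in ovo over in vitro of the tested clade A serpins of chromosome 14, in order of position, in HepG2, Hep3B and HuH7; PLC/PRF/5 is not drawn. Stars mark genes outside the 9, and open points were not called. In Hep3B all but SERPINA11 rose, and in HepG2 SERPINA3 and SERPINA11 lie below 0.

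The stretch before the start of transcription was examined for the 6 members with an entry in the RefSeq promoter table (GRCh38.p14). Short strings were searched on both strands over the 250 bases before the first listed start of each gene. Other starts of a gene were not searched. For the hepatocyte factor HNF1 the string was GTTAAT. That for HNF4 was CAAAGTCCA and that for the FOXA factors was TGTTTAC. C/EBP factors were searched with TTGCNNAA and the acute phase factor STAT3 with TTCCNGGAA. The TATA box was searched as TATAAA. SERPINA6, SERPINA7 and SERPINA10 held GTTAAT, which 6.23% of 35116 promoters hold. They are shown because SERPINA6 and SERPINA10 rose in both HepG2 and Hep3B, and SERPINA7 in neither. Capitals mark the matches, and the last base is the one before the start.
SERPINA6: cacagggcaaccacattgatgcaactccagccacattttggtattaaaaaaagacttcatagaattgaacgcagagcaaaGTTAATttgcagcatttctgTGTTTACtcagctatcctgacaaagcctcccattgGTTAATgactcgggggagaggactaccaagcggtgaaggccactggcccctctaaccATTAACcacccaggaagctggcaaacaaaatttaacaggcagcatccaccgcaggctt
SERPINA10: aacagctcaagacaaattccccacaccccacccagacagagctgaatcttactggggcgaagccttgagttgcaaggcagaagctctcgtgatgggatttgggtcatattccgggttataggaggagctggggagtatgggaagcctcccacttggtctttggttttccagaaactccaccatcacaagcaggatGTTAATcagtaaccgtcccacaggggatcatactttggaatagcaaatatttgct
SERPINA7: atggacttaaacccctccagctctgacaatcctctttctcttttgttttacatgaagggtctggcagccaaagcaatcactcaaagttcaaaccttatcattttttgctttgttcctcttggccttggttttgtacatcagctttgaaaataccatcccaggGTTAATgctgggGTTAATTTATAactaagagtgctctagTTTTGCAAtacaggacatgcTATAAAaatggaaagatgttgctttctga

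These are, all on the minus strand of the genome, chr14:94323337-94323586 for SERPINA6, chr14:94293269-94293518 for SERPINA10 and chrX:106038728-106038977 for SERPINA7. SERPINA6 held 3 matches to GTTAAT and 1 to TGTTTAC, the latter present in 2.98% of promoters. SERPINA10 held 1 match to GTTAAT. SERPINA7 held 2, together with 1 match to TTGCNNAA (9.05% of promoters) and 2 to TATAAA (10.7%), the first of which shares a base with GTTAAT. The windows of SERPINA1, SERPINA3 and SERPIND1 held none of the 6 strings. That of SERPINA1 (chr14:94390636-94390885) lies at the upstream end of the gene, which spans 94376747 to 94390693. Starts further inside SERPINA1 were not examined. No CAAAGTCCA (0.325% of promoters) or TTCCNGGAA (0.968%) was found in any of the 6. A match is a description of letters and says nothing about which factor binds.

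For this list and those that follow, counts are to be read against the shares of all genes called higher and lower. These were 24.6% and 27.4% in Hep3B, 12.1% and 13% in HepG2, 23.6% and 19.8% in HuH7, and 11.9% and 5.61% in PLC/PRF/5. A count near these shares says nothing particular about its list. The PLC/PRF/5 counts of these lists include any HepG2 tumour signal, as described above for the 9 serpins. Its part in them was not tested. Of the 26 other serpins 16 were tested. In Hep3B 3 rose and 7 fell, in HepG2 2 rose and 7 fell, in HuH7 2 rose and 3 fell, and in PLC/PRF/5 4 were called higher and 4 lower. Their median log2 fold change was -0.19 in Hep3B and -0.57 in HepG2, below those of the 9. The ones that rose in Hep3B were SERPINA4, SERPINA5 and AGT, the angiotensin precursor, which rose from 2295 ± 66.7 to 37420 ± 2854 CPM (adjusted p = 6.84e-14). Those that fell were SERPINE2, an inhibitor of thrombin made by many tissues, from 48.6 ± 2.92 to 6.62 ± 4.50 CPM (adjusted p = 4.65e-07), the intracellular serpins SERPINB1, SERPINB6, SERPINB8 and SERPINB9, the collagen chaperone SERPINH1 (log2 -1.21, adjusted p = 0.00588) and SERPINF1. SERPINF1, a secreted serpin that the liver also makes, went from 313 ± 4.25 to 197.8 ± 160.5 CPM (log2 -1.03, adjusted p = 0.0409), though the highest tumour, at 424.9 CPM, lay above the cultures. In HepG2 SERPINE2 and the 4 named intracellular serpins fell too, SERPINE2 from 355 ± 14.8 to 9.89 ± 2.61 CPM (adjusted p = 8.12e-11).

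Of 16 listed proteases, or their precursors, that plasma serpins meet, 13 were tested. In Hep3B 9 rose and 2 fell, with a median log2 fold change of 1.59. Plasminogen (PLG), whose active form SERPINF2 blocks, was near the floor in Hep3B cultures, at 0 to 0.334 CPM, and reached 103 ± 37.5 CPM in tumours (adjusted p = 5.58e-16). Prothrombin (F2), the precursor of the enzyme that SERPINC1 and SERPIND1 block, rose from 368 ± 2.01 to 2329 ± 596 CPM (adjusted p = 2.49e-09). The 2 that fell in Hep3B, C1R and C1S, are the complement proteases that SERPING1 blocks (log2 -1.88, adjusted p = 8.02e-07, and -1.29, adjusted p = 0.000664). In HuH7, where SERPINC1 fell, F2 fell too, from 105 ± 2.66 to 24.8 ± 8.49 CPM (adjusted p = 1.31e-07). Only 1 listed protease rose in HuH7, HGFAC, and 2 fell. In HepG2 2 rose and 4 fell, with PLG among those that rose, from 2.04 ± 0.192 to 31.2 ± 6.53 CPM (adjusted p = 1.58e-10). PLC/PRF/5 had 5 called higher and 3 lower. Of the 5 neutrophil and mast cell proteases 1 was tested, PRTN3, and it was called higher in PLC/PRF/5 (log2 1.16, adjusted p = 0.00252).

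Among 13 liver transcription factors, all tested, 3 rose and 4 fell in Hep3B, near the shares of all genes there (24.6% and 27.4%). HNF4A, a regulator of many hepatocyte genes, rose there from 927 ± 65.5 to 2288 ± 493 CPM (adjusted p = 0.00136), and FOXA2 fell (log2 -2.25, adjusted p = 0.000243). In HepG2 6 rose and 1 fell, the latter being CEBPB (-1.45, adjusted p = 5.69e-07). In HuH7 4 rose and 3 fell, also near the shares of all genes (23.6% and 19.8%), with CEBPD the highest (4.27, adjusted p = 7.54e-06). In PLC/PRF/5 6 were called higher and none lower. Of 10 genes of interleukin 6 and STAT3 signalling, the route by which the acute phase reaches hepatocytes, 1 rose and 4 fell in HepG2. The receptor IL6R fell in HepG2 from 34.5 ± 0.917 to 2.59 ± 1.65 CPM (adjusted p = 6.93e-08). SOCS3, a feedback target of STAT3, fell from 7.36 ± 1.99 to 3.29 ± 1.31 CPM (adjusted p = 0.00486). In HuH7, where SERPING1 and SERPINA3 rose, 2 rose and 2 fell, and SOCS3 went up from 2.27 ± 0.447 to 12.5 ± 4.08 CPM (adjusted p = 1.01e-06). In Hep3B, where SERPINA3 rose as well, 2 rose and 4 fell, and SOCS3 went down from 3.63 ± 0.196 to 0.206 ± 0.249 CPM (adjusted p = 9.73e-07). In PLC/PRF/5 3 were called higher and 1 lower.

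Of 7 genes of hormone carriage and response, 6 were tested. Transthyretin (TTR), which shares thyroxine transport with SERPINA7, rose in Hep3B from 82.2 ± 1.93 to 962 ± 145 CPM (adjusted p = 1.37e-06), while SERPINA7 had 2.08 to 4.14 CPM in the same tumours. The deiodinase DIO1 and the thyroid hormone receptor THRB rose there too, and the glucocorticoid receptor NR3C1 fell (log2 -1.93, adjusted p = 2.46e-06), against 3 higher and 1 lower in all. HepG2 had 1 higher, HuH7 3 lower and PLC/PRF/5 1 higher. The 10 genes that help serpins fold and leave the cell, or dispose of misfolded ones, were all tested. In Hep3B none was called higher and 2 lower (MAN1B1 and MCFD2). In HepG2 none was higher and 2 lower, in HuH7 none was higher and 5 lower, and in PLC/PRF/5 the chaperone HSPA5 was higher (log2 0.91, adjusted p = 0.00809). MCFD2, part of the receptor that carries cargo out of the endoplasmic reticulum, fell in HepG2, Hep3B and HuH7.

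The genes whose levels followed each member most closely over the 8 group means were chosen by rule, as the 2 with the highest Pearson r, and are a description only, since the points share lines and scaling. For SERPINA1 these were PDIA4 and FABP1 (r = 0.988 and 0.987), and for SERPINA6 RINL and AGT (0.995 and 0.994). SERPIND1 was followed by HNF4A and SLC9A3R1 (0.993 and 0.987), SERPINC1 by EXTL1 and DIO1 (0.984 and 0.982) and SERPINF2 by CYP27A1 and GREB1 (0.989 and 0.988). SERPINA3 was nearest to SPN and NOTUM, SERPINA7 to MRPL50 and ADAMTSL2, SERPINA10 to SYNE3 and SULT1C2, and SERPING1 to MAP4K2 and FES, with r from 0.979 to 0.994.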

How the data were processed

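Expression was measured in 28 libraries made from 500 ng of total RNA with targeted amplicons, per the labels' protocols. The submitters' processing notes name hg38 as the build, and the aligner and counter are not given. Each deposited library is a signal over amplicons with a total of 500000, doubled here to CPM. Since low values are whole multiples of 1 step, the reads behind them were recovered (at least 99.9684% of values within 0.01 of a whole read, largest departure 0.126). A damaged value of KRT18 (PLC/PRF/5 tumour replicate 2) was set to its library's shortfall, 4021 CPM.

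1 limma fit (3.58.1, trended variance, R 4.3.3) of log2(CPM + 1) after TMM scaling (edgeR 4.0.16) covered 8 groups with 20 residual degrees of freedom. edgeR's filter by group (at least 10 reads) kept 13100 genes and left 5861 untested. Contrasts were in ovo minus in vitro per line and in the mean of lines, the interaction, and pairs of lines. The script was tested on simulated data. Precision is set by depth (6085750 to 15086465 reads) and by 3 or 4 libraries a group. edgeR's quasi-likelihood test and DESeq2 (1.42.0) on recovered reads were among the alternatives, with other scalings, filters, pseudocounts (0.25 and 5 CPM), each line alone, the replicate block, the 20 most abundant genes left out, GC and length trends removed, libraries left out, and 1 added after seeing the data, a subtraction of the other lines' tumour shares.

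Named genes are the 9 members, the 2 genes of most like pattern per member, and at most 4 called genes per list and line; further list members were named after their values were seen. The members and lists were chosen with earlier results of these data known. Amplicons were matched exactly to GENCODE 29 transcripts and compared with other genes by blastn 2.17.0.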

Additional observations from a re-analysis of the deposited data

Results flagged for a closer look

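Of 36 groups of 4 tumours checked, 9 genes in 4 lines, 2 held a tumour far from the other 3, where chance flags about 1 in 20. SERPINA3 in HuH7 in ovo replicate 3 stood at 10.45 CPM, with a gap to the next tumour of 0.8398 of the range. SERPINA10 in HepG2 in ovo replicate 3 stood at 46.34 CPM (0.8724). Both are libraries that stand apart over all genes, with a chi-square per gene of 145 to 234 against the other HuH7 tumours and 136 to 149 against the other HepG2 tumours.

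The response to growth in ovo differed between the 4 lines, by limma's F test adjusted over 13100 genes, for SERPINC1 (adjusted p = 1.65e-15), SERPINA1 (1.21e-11), SERPINA3 (3.13e-09), SERPINA6 (7.52e-08), SERPING1 (2.53e-07), SERPIND1 (3.03e-06), SERPINA10 (8.25e-06) and SERPINF2 (0.00932). SERPINC1 and SERPINA3 were called in opposite directions in different lines. The test includes PLC/PRF/5 responses, some of which changed when the shares of other lines' tumours were subtracted. In PLC/PRF/5 SERPINA1 went from 6.19 to -2.23 on the log2 scale and SERPIND1 from 4.49 to -0.50.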

How the results depend on the processing

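Cultures and tumours differed between lines for every member fitted in each alternative run: 8 with the 20 most abundant genes left out, which removes SERPINA1, and 9 in the others. DESeq2's Wald test and the fits of single lines gave no interaction, culture or tumour test. In HuH7 2 members, against 1, were called lower with library totals, a pseudocount of 0.25, DESeq2's test, HuH7 alone, GC and length trends removed, and the subtraction of other tumours' shares; 1, against 2, was called higher with a pseudocount of 5, HuH7 alone, GC and length trends removed, and the subtraction. The subtraction left 0 called higher and 1 lower in PLC/PRF/5. Fitted alone, HuH7 had 3567 genes called and PLC/PRF/5 3508. In the fit of all lines without the 4 in ovo libraries numbered 3, PLC/PRF/5 had 3804. With 1 library left out, members called higher ranged from 2 to 4 in HepG2 (2 without HepG2 in ovo replicate 3) and lower from 1 to 2 in HuH7, and PLC/PRF/5 genes called from 1365 (without in vitro replicate 2) to 2833. The causes were not tested.

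Directions turned as follows, on the log2 scale. With library totals, SERPINA7 and SERPING1 in Hep3B were -0.38 and -0.20, SERPINA6 and SERPINA10 in HuH7 -0.14 and -0.019. With GC and length trends removed, SERPING1 in Hep3B was -0.052, SERPINA6 and SERPIND1 in HuH7 -0.31 and -0.46. Without the libraries numbered 3, or HuH7 in ovo replicate 3 alone, SERPINA6, SERPINA10 and SERPINF2 in HuH7 were -0.035, -0.018 and 0.11, and without HuH7 in ovo replicate 4 0.35, 0.31 and -0.42. SERPINA7 in the mean of lines was 0.75 by edgeR, 0.63 by DESeq2 and 0.010 without the libraries numbered 3. After subtraction SERPINA1, SERPINC1, SERPIND1 and SERPINF2 in PLC/PRF/5 were -2.23, -0.18, -0.50 and -1.01.

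The main fit did not pair samples by replicate number. Deviations of same-numbered cultures and tumours correlated at -0.0955 to 0.457, which cannot decide whether the numbers pair them. The highest were HepG2 number 1 (0.438) and PLC/PRF/5 number 2 (0.457). With the replicate block, members called higher were 3 in HepG2 and 5 in PLC/PRF/5, and genes called 6777 in Hep3B, 2872 in HepG2, 1818 in PLC/PRF/5 and 6463 in HuH7. Depth limits SERPINA7 in HuH7 and PLC/PRF/5 and SERPINA10 in PLC/PRF/5, where values rest on 0 to 11 reads.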
